A study of Mus musculus with 6 samples.

Results

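The 37 genes described here are interferon-stimulated genes of the antiviral, type I interferon programme. They were taken by gene symbol from a fixed list, and each symbol was found once among the 57462 genes given for every library. All 37 passed the filter on low values and were tested among 14207 genes. RNA sequencing had been done on 6 tumours of HM1, a mouse ovarian cancer cell line, in an early tumour model. Of these, 3 grew from cells with a control short hairpin RNA (shControl, labelled wild type) and 3 from cells with a hairpin that knocks down the sialyltransferase gene St3gal3 (shST3GAL3). The sources used here do not give the host's strain, age or treatment, or say whether a hairpin line was 1 clone. Values are TPM, length-corrected transcript abundances scaled to the same total in each library, so that levels of different genes can be set side by side.

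Type I interferons are secreted when cells sense viral or misplaced nucleic acids. They bind the receptor IFNAR, whose kinases JAK1 and TYK2 phosphorylate STAT2. With IRF9 it enters the complex ISGF3, which binds interferon response elements in promoters and switches on antiviral effectors, while IRF7 amplifies interferon production. Interferon gamma acts mainly at another element, and many of the genes respond to both. In tumours the programme can run in malignant, stromal and immune cells alike.

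The libraries held 13930 to 14762 genes with a TPM of 1 or more, and read depth is not recoverable from TPM. St3gal3 itself lay between 13.79 and 14.03 TPM in the shControl libraries and between 6.77 and 8.44 TPM in the shST3GAL3 libraries, without overlap (log2 fold change -0.80, SE 0.11, limma adjusted p = 0.348). The keratin genes Krt8, Krt18 and Krt19 of the epithelial tumour cells were abundant in every library (384.42 to 1303.81 TPM), whereas Epcam was at most 1.17 TPM, and Cldn4 and Muc16 were listed at 0. Whether the tumours of a group grew in separate animals is not stated, so a p-value here reflects only how far these libraries differ, which may be technical in part. In whole tumours, a higher share of expressing cells and more RNA per cell cannot be told apart. With 3 libraries against 3, an exact two-sided permutation test of 1 gene cannot give a p below 0.1.

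The interferon response element was found in a part of the promoters searched. The stretches below were chosen among the genes that hold it, because those genes carry the patterns described further on. A RefSeq promoter (250 bases before to 50 after the start, GRCm38.p6) was matched by symbol for 27 of the 37 genes. Dhx58, Zbp1, Oas2, Mx1, Mx2, Usp18, Parp9, Parp14, Rtp4 and Ifi27l2a had no entry. The core GAAANNGAAA, searched anywhere in that window on both strands with overlaps allowed, was present in 11 of the 27 (40.7%) and in 3.99% of the 27025 genes with a promoter entry. These were Stat2, Ifih1, Eif2ak2, Ifit1, Ifit3, Oas1a, Oas3, Rsad2, Bst2, Isg15 and Trim30a. Each stretch is written 5′ to 3′ along the gene's own strand, with the bases of the element, or of its reverse complement, in capitals. The stretch of Ifit1 (chr19:34640760-34640838, plus strand) holds 2 elements, the first 104 bases before the start. That of Ifit3 (chr19:34583348-34583441, plus strand) also holds 2. That of Isg15 (chr4:156200850-156200921, minus strand) holds 3 overlapping elements in a single run. Rsad2 (chr12:26456538-26456597, minus strand) and Oas3 (chr5:120777700-120777759, minus strand) hold 1 each, and Bst2 (chr8:71537562-71537627, minus strand) holds 2 that overlap.
Ifit1: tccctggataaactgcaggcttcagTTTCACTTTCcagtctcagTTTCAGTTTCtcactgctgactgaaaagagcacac
Ifit3: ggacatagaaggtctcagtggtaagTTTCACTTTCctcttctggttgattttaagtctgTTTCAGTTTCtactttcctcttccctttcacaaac
Isg15: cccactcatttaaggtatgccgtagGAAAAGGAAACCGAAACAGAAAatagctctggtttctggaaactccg
Rsad2: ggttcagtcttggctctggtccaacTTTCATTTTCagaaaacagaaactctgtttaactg
Oas3: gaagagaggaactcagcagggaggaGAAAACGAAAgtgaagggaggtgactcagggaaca
Bst2: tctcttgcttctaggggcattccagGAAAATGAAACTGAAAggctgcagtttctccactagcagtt

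The control tumours differed from each other in these genes more than in most others. The library shControl 2 was the lowest of the 3 controls for 36 of the 37 genes (34.7% of all genes tested), and shControl 3 the highest for 33 (34.5% of all genes). The full order shControl 2, shControl 1, shControl 3, from low to high, was found for 33 of 37 genes (18.3% of all genes). Isg20, an RNA exonuclease gene, was the only one of the 37 with its lowest value elsewhere, at 102.90, 98.25 and 95.65 TPM in the controls. Zbp1, Oasl1 and Xaf1 were lowest in shControl 2 but highest in shControl 1. On the log2(TPM + 1) scale, the value in shControl 3 exceeded that in shControl 2 by a median of 0.54, against 0.01 over all genes. The excess was over 0.5 for 21 of 37 genes (4.88% of all genes). Ranked among all genes by this difference, 21 of the 37 fell in the top 5% and 28 in the top 10%. These libraries were the lowest and highest controls for most of these same genes, so the ranks are a description and not a test.

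**Figure D1:**
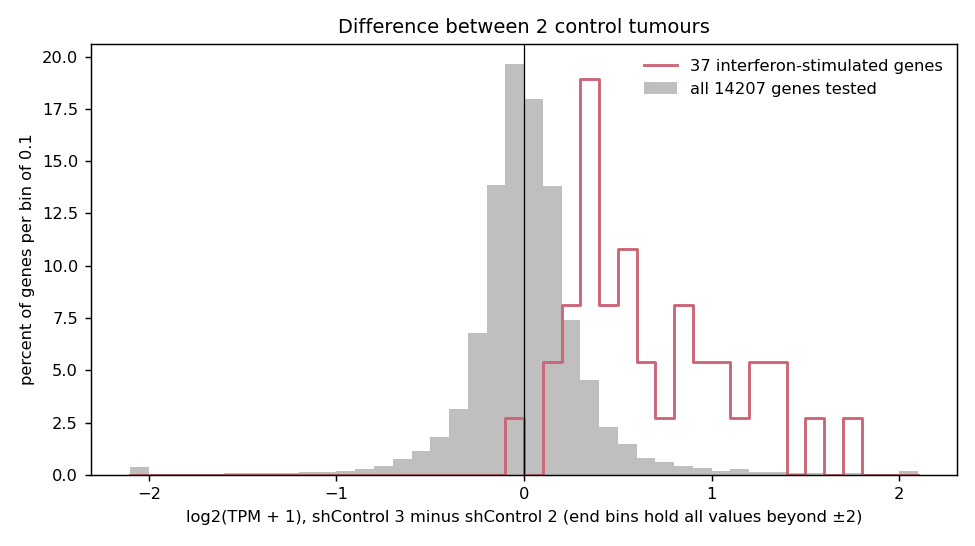
Difference in log2(TPM + 1) between shControl 3 and shControl 2 (horizontal axis), as the percent of genes in each bin of 0.1 (vertical axis), for the 14207 genes tested (grey bars) and the 37 interferon-stimulated genes (red line). The 37 genes lie to the right of the bulk, with 36 of them above 0 and a median of 0.54.

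The IFIT genes, whose products bind foreign RNA and block its translation, were among the 5 of the 37 with the largest control SDs on the log2 scale (Ifit1 0.87, Ifit3 0.79 and Ifit2 0.64). Ifit1 had a TPM of 17.91, 7.81 and 27.94 in shControl 1, 2 and 3, and of 21.61, 21.63 and 20.66 in shST3GAL3 1, 2 and 3. The control values thus ran 3.58-fold from lowest to highest, while the 3 shST3GAL3 values were almost level and inside the control range. Ifit3, the stabilizing partner of Ifit1, stood at 45.11, 21.15 and 63.84 TPM in the controls and at 60.99, 56.80 and 57.68 TPM in the shST3GAL3 tumours. Again shControl 2 was far below the rest and shControl 3 was the highest of all libraries. Ifit2 stood at 13.02, 6.11 and 15.52 TPM and at 16.65, 16.17 and 15.97 TPM, so that its groups did not overlap, by a margin of under 1 TPM. The log2 fold changes of shST3GAL3 against shControl were 0.40 (SE 0.40) for Ifit1, 0.56 (SE 0.36) for Ifit3 and 0.55 (SE 0.30) for Ifit2. Without shControl 2 that of Ifit1 was -0.07. In GENCODE M21, 41.1% of the 75-base windows of Ifit3 also occur in its near copy Ifit3b, so the split of reads between them is uncertain. Ifit3b showed the same order, with 9.50, 4.76 and 13.61 TPM in the controls and 11.07 to 11.67 TPM in the shST3GAL3 tumours.

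Rsad2 and Mx2, with control SDs of 0.72 and 0.70, lay between Ifit3 and Ifit2 in that order and also varied among the shST3GAL3 tumours, with SDs of 0.51 and 0.61 on the log2 scale. Rsad2 encodes viperin, which makes a chain-terminating nucleotide, and stood at 10.41, 4.05 and 11.59 TPM in the controls and at 16.18, 7.92 and 14.77 TPM in the shST3GAL3 tumours. The library shST3GAL3 2 was therefore below shControl 1 and shControl 3. Its neighbour on chromosome 12, Cmpk2, which encodes a mitochondrial nucleotide kinase, stood at 12.12, 7.54 and 14.91 TPM and at 13.92, 14.10 and 15.80 TPM, with no dip in shST3GAL3 2. Mx2, a dynamin-like GTPase gene, was the least abundant of the 37 and stood at 3.04, 1.32 and 5.11 TPM and at 3.91, 1.75 and 5.24 TPM. Both groups covered nearly the same range, and the log2 fold change of 0.19 (SE 0.43) was -0.18 without shControl 2. Mx1, its paralogue, stood at 4.29, 2.82 and 4.74 TPM in the controls and at 7.14, 5.27 and 5.43 TPM in the shST3GAL3 tumours. Its groups did not overlap (log2 fold change 0.50, SE 0.20). Bst2, which encodes the virus-tethering protein tetherin, was the most abundant of the 37 and narrow in both groups, at 367.48, 340.90 and 422.80 TPM and at 425.24, 468.12 and 417.59 TPM. Its shST3GAL3 values lay above those of shControl 1 and 2 and around that of shControl 3 (log2 fold change 0.22, SE 0.10).

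**Figure D2:**
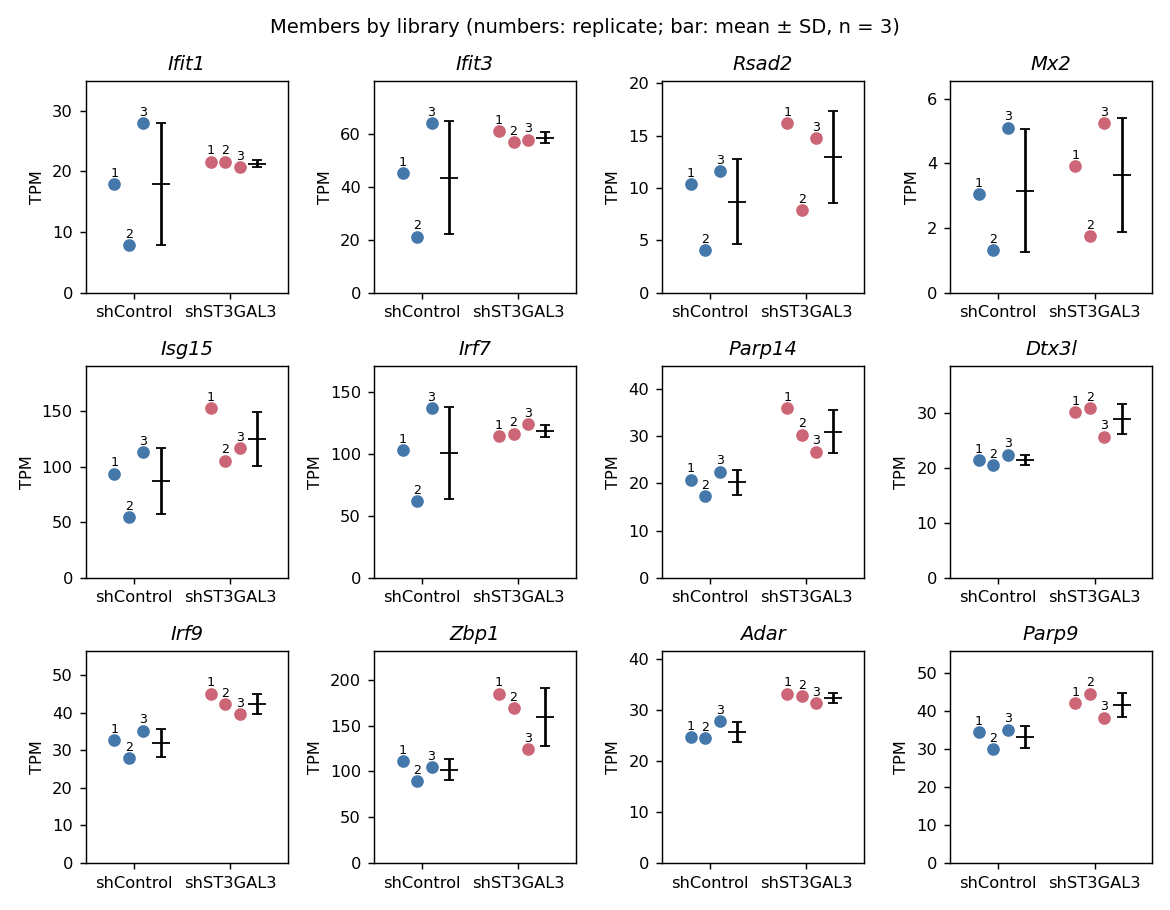
TPM (vertical axes, from 0) of 12 genes in the 3 shControl (blue) and 3 shST3GAL3 (red) libraries, numbered by replicate, with the mean and SD as a bar beside each group. In the top row and for Isg15 and Irf7 the control points are far apart and overlap or nearly reach the shST3GAL3 points, whereas for Parp14, Dtx3l, Irf9, Zbp1, Adar and Parp9 the groups do not overlap.

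Measured by SD, the spread of the 37 genes was wide in the controls and narrower in the shST3GAL3 tumours, the reverse of what all tested genes showed. The median SD of log2(TPM + 1) was 0.28 over the 3 shControl libraries and 0.15 over the 3 shST3GAL3 libraries, while over all genes tested it was 0.12 and 0.18. The SD was larger in the controls for 28 of 37 genes (30.8% of all genes). A range of over 1 log2 unit was seen for 9 of the 37 in the controls (4.01% of all genes), namely Ifit1, Ifit2, Ifit3, Mx2, Rsad2, Ifi44, Irf7, Isg15 and Rtp4. In the shST3GAL3 tumours it was seen for Mx2 and Ifi27l2a, 2 of 37 (11.1% of all genes). The lowest control SDs were those of Isg20 (0.05), Dtx3l (0.06), Adar (0.10), Parp9 (0.12) and Ifi35 (0.13), and the highest that of Ifit1 (0.87). Without shControl 2 the median control SD was 0.17.

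**Figure D3:**
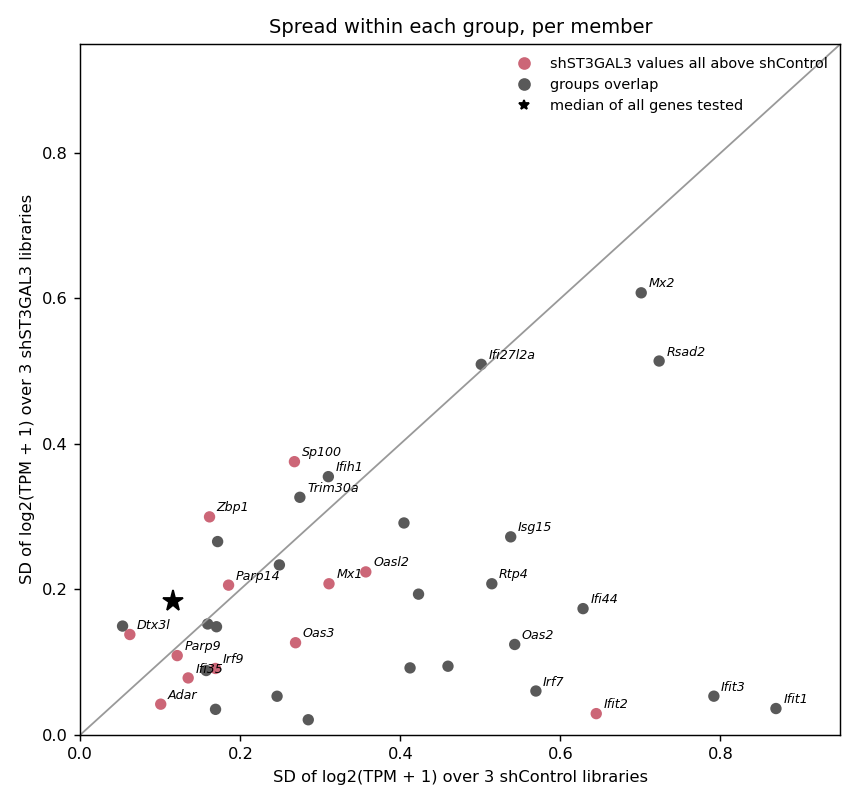
SD of log2(TPM + 1) over the 3 shControl libraries (horizontal axis) and over the 3 shST3GAL3 libraries (vertical axis), a point per gene, red where the lowest shST3GAL3 value exceeds the highest shControl value, with the median of all genes as a star and equality as a line. Ifit1, Ifit3, Ifit2, Irf7, Oas2 and Ifi44 lie far below the line, with control SDs from 0.54 to 0.87, and the red genes other than Ifit2 have control SDs of at most 0.36.

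Set against the controls as a group, the 37 genes had higher means in the shST3GAL3 tumours but none passed the test. The log2 fold change was positive for 36 of 37 genes (52.7% of all genes), with a median of 0.37, against 0.01 over all genes. At an adjusted p under 0.05 (limma) 0 of the 37 were higher (0% of all genes) and 0 lower (0.00704% of all genes), and their adjusted p-values ran from 0.38 to 0.942. At an unadjusted p under 0.05, 13 were higher (9.19% of all genes) and 0 lower (3.78%). The lowest shST3GAL3 value exceeded the highest shControl value for 12 genes (15.7% of all genes), and the reverse held for 0 (7.76%). Leaving out shControl 3 raised the count of 13 to 25 (4.85% of all genes). It was 5 on leaving out shControl 2 (4.47%), and 7 on leaving out shControl 1 (5.82%), shST3GAL3 1 (8.43%) or shST3GAL3 2 (7.62%). The count of 12 was 28 without shControl 3, where 20.3% of all genes passed the same rule, and 20 without shST3GAL3 3 (22.9%). The median log2 fold change was 0.17 without shControl 2 and 0.53 without shControl 3. Each control taken by itself gave another picture, since all 3 shST3GAL3 tumours exceeded shControl 2 for 35 genes (31% of all genes), shControl 1 for 28 (31%) and shControl 3 for 14 (31.7%). For 13 genes shControl 3 was above the shST3GAL3 mean (47.7% of all genes).

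**Figure D4:**
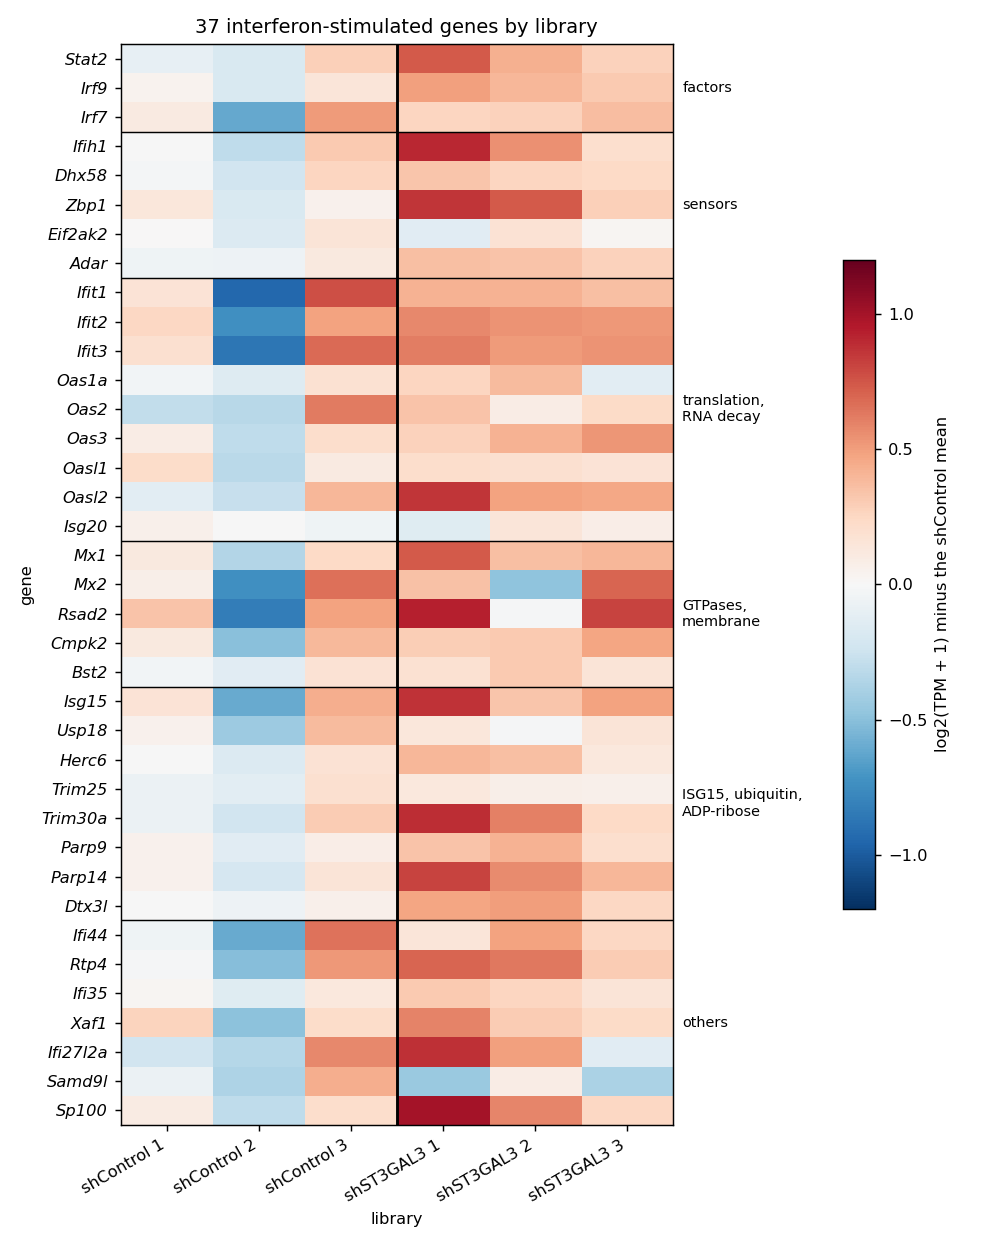
Colour gives log2(TPM + 1) minus the mean of the 3 shControl libraries for the 37 genes (rows, grouped by role) in the 6 libraries (columns; shControl left of the black line). The column of shControl 2 is blue for almost all genes and that of shControl 3 mostly red, and the shST3GAL3 columns are mostly red, with a value below 0 in 1 or more of them for Samd9l, Eif2ak2, Isg20, Oas1a, Mx2, Rsad2, Usp18 and Ifi27l2a.

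Among the transcription factors, the ISGF3 subunit genes Irf9 and Stat2 had larger log2 fold changes than Irf7, a difference that was not tested. Irf9 had a TPM of 32.71, 27.78 and 35.17 in the controls and of 45.04, 42.20 and 39.57 in the shST3GAL3 tumours, without overlap (log2 fold change 0.40, SE 0.11, limma adjusted p = 0.38). Stat2 stood at 20.20, 19.01 and 26.65 TPM and at 36.87, 29.45 and 26.60 TPM, where shST3GAL3 3 and shControl 3 were level (0.48, SE 0.17). Irf7, the amplifier of interferon production, stood at 103.03, 62.09 and 136.48 TPM and at 114.32, 116.29 and 123.83 TPM. All 3 shST3GAL3 values lay inside its control range (0.30, SE 0.26), and without shControl 2 the log2 fold change was -0.0062.

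Of the 5 nucleic acid sensor and RNA-handling genes, Zbp1 and Adar had groups that did not overlap. Zbp1, a sensor of Z-form nucleic acid that can trigger cell death, stood at 111.30, 89.42 and 104.82 TPM in the controls and at 184.93, 169.04 and 124.12 TPM in the shST3GAL3 tumours (log2 fold change 0.63, SE 0.16). Adar, the editing enzyme that keeps cellular double-stranded RNA from being sensed, stood at 24.72, 24.47 and 27.87 TPM and at 33.20, 32.70 and 31.33 TPM (0.33, SE 0.08). The difference of Adar was smaller than that of Zbp1, but its values were close together in each group. Ifih1, which encodes the RNA sensor MDA5, stood at 4.52, 3.49 and 5.90 TPM and at 9.42, 7.12 and 5.37 TPM, so shST3GAL3 3 fell below shControl 3 (0.55, SE 0.24). Dhx58, which encodes the related LGP2, ran from 11.50 to 16.55 TPM in the controls and from 16.31 to 17.54 TPM in the shST3GAL3 tumours. Eif2ak2, which encodes the kinase PKR that halts translation, covered 20.68 to 26.03 and 21.15 to 26.36 TPM (0.02, SE 0.12). No direction can be given for Eif2ak2, whose sign turned under quantile normalization and without shControl 2 or shST3GAL3 2. In GENCODE M21, 16.8% of the exon bases of Adar overlap Chrnb2, and no source used here gives the strand setting of the counting.

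In the oligoadenylate synthetase family, whose active enzymes make the messenger that activates RNase L, some genes had overlapping groups and others did not. Oas3 stood at 17.62, 13.17 and 19.24 TPM in the controls and at 20.22, 22.41 and 24.28 TPM in the shST3GAL3 tumours (log2 fold change 0.41, SE 0.15). Oasl2, a family member with ubiquitin-like domains, stood at 41.80, 37.62 and 60.82 TPM and at 83.77, 64.33 and 63.29 TPM (0.60, SE 0.20). Neither gene had overlapping groups, although shControl 3 came within 3 TPM of the lowest shST3GAL3 value of Oasl2. Oas2 stood at 6.65, 6.44 and 13.47 TPM and at 10.85, 8.98 and 9.99 TPM, where shControl 3 was the highest of all libraries (0.22, SE 0.27). Oasl1, which represses translation of Irf7, ran from 24.16 to 35.55 TPM in the controls and only from 34.29 to 35.31 TPM in the shST3GAL3 tumours. Oas1a ran from 11.14 to 14.35 and from 11.36 to 16.58 TPM. It shares 47.6% of its 75-base windows with Oas1g, which leaves both uncertain. Isg20 ran from 95.65 to 102.90 and from 89.46 to 109.28 TPM (0.03, SE 0.09). Its sign turned under quantile normalization and without shST3GAL3 2 or shST3GAL3 3.

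In the group of ISG15, ubiquitin and ADP-ribose enzymes, Parp9, Parp14 and Dtx3l had groups that did not overlap, and the other 5 genes had groups that did. Parp9 and Dtx3l encode partners in a complex that joins an ADP-ribosyltransferase with a ubiquitin ligase, and Parp14 encodes another ADP-ribosyltransferase. All 3 genes lie on chromosome 16. Parp14 stood at 20.77, 17.29 and 22.50 TPM in the controls and at 35.85, 30.31 and 26.73 TPM in the shST3GAL3 tumours (log2 fold change 0.59, SE 0.14). Dtx3l stood at 21.37, 20.44 and 22.36 TPM and at 30.10, 30.74 and 25.65 TPM (0.41, SE 0.10). Parp9 stood at 34.48, 29.99 and 35.14 TPM and at 42.14, 44.61 and 38.28 TPM (0.32, SE 0.10). In each of them the lowest shST3GAL3 value was above the highest control value, yet the limma adjusted p was 0.38. The exons of Parp9 and Dtx3l overlap by 9.4% and 8% of their bases, so a part of their reads may not be independent.

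Isg15 encodes the ubiquitin-like modifier of the programme and stood at 93.75, 54.56 and 112.89 TPM in the controls and at 152.50, 105.45 and 117.07 TPM in the shST3GAL3 tumours. The value of shST3GAL3 2 fell between those of shControl 1 and shControl 3 (log2 fold change 0.56, SE 0.28). Usp18, which removes ISG15 and restrains signalling at IFNAR, stood at 29.06, 20.38 and 36.71 TPM and at 30.74, 27.63 and 31.17 TPM. Its log2 fold change of 0.09 (SE 0.20) was -0.13 without shControl 2. Herc6, the ligase that attaches ISG15 in mice, ran from 7.84 to 10.19 and from 9.81 to 12.07 TPM, and 22.4% of its windows are shared with the predicted gene Gm45193. Trim25, a ubiquitin ligase of the RNA sensor pathway, ran from 28.94 to 36.31 and from 33.17 to 34.66 TPM. Trim30a stood at 15.92, 14.12 and 20.91 TPM and at 31.90, 25.94 and 19.94 TPM, where shST3GAL3 3 fell below shControl 3 (0.58, SE 0.20).

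Of the remaining genes, Sp100 and Ifi35 had no overlap between the groups. Sp100, which encodes a component of PML nuclear bodies, stood at 29.62, 22.24 and 32.07 TPM in the controls and at 56.34, 41.88 and 33.11 TPM in the shST3GAL3 tumours (log2 fold change 0.61, SE 0.22). Ifi35 stood at 44.03, 39.12 and 47.27 TPM and at 54.06, 52.09 and 48.49 TPM (0.24, SE 0.09). In both genes shST3GAL3 3 lay close above shControl 3. Of the exon bases of Ifi35, 16.8% overlap Gm11626 in GENCODE M21, with the strand setting unknown as for Adar. Samd9l, which encodes an antiviral factor that blocks translation, was the only one of the 37 with a negative log2 fold change (-0.24, SE 0.24). It stood at 17.29, 13.85 and 24.87 TPM and at 13.11, 19.43 and 13.76 TPM. Its values in shST3GAL3 1 and 3 lay below all controls, and that of shST3GAL3 2 inside the control range. The margin was narrow, with shST3GAL3 3 at 13.76 TPM and shControl 2 at 13.85 TPM. Ifi44 ran from 11.81 to 29.55 and from 20.54 to 26.22 TPM, and Rtp4 from 29.77 to 61.77 and from 53.25 to 69.89 TPM. Rtp4 shares 12.4% of its 75-base windows with Gm45338, which overlaps 13.9% of its exon bases. Xaf1, a pro-apoptotic antagonist of the inhibitor XIAP, ran from 37.65 to 64.03 and from 62.36 to 80.70 TPM. Ifi27l2a, which after Mx2 and Rsad2 had the largest SD in the shST3GAL3 group (0.51), stood there at 247.78, 190.17 and 122.64 TPM and ran from 105.91 to 200.90 TPM in the controls. Without shControl 2 the log2 fold change of Ifi44 was -0.0089, against 0.29 with all libraries.

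The 12 genes without overlap were thus mainly those with narrow control values. Irf9, Zbp1, Adar, Oas3, Oasl2, Mx1, Parp9, Parp14, Dtx3l, Ifi35 and Sp100 had control SDs of 0.06 to 0.36, and Ifit2 one of 0.64. The median control SD was 0.18 over the 12 genes and 0.41 over the 25 with overlap. The median log2 fold change was 0.46 over these 12 genes and 0.30 over the 25 with overlap. As non-overlap depends on the control spread, this is a description of the values. The promoter element was present for 1 of the 8 genes without overlap that had a promoter entry (Oas3) and for 10 of the 19 with overlap, a difference that was not tested. The 11 genes with the element and the 16 without it had median control SDs of 0.27 and 0.28 and median differences between shControl 3 and shControl 2 of 0.54 and 0.47. Their median log2 fold changes were 0.48 with the element and 0.31 without it, so the genes with it did not have the smaller fold changes. Without it means only that the core GAAANNGAAA was not matched in the window searched. An element elsewhere, or one of another sequence, would not have been found.

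Upstream of the 37 genes, the interferon ligands were barely present. Of 21 ligand genes found, 16 were listed at 0 in all libraries. The type I ligand genes Ifnb1, Ifna2, Ifna4 and Ifnz reached at most 0.21 TPM in any library, and Ifnb1 was above 0 in 3 libraries, shControl 3, shST3GAL3 2 and shST3GAL3 3. Ifng, the gene of interferon gamma, had a TPM of 2.77, 1.77 and 2.00 in the controls and of 4.67, 3.93 and 2.06 in the shST3GAL3 tumours, with overlap (log2 fold change 0.48, SE 0.27). Among 10 receptor and kinase genes 0 passed the adjusted test (limma). At an unadjusted p under 0.05, 5 were higher (9.19% of all genes) and 0 lower (3.78%). Ifnar1, a chain of the type I receptor, stood at 30.47, 30.37 and 31.87 TPM and at 43.50, 37.66 and 33.51 TPM (0.29, SE 0.11), and the receptor chain genes Ifngr1 (0.51, SE 0.17) and Ifngr2 (0.47, SE 0.17) also had no overlap. Ifnar2, the other type I receptor chain gene, stood at 46.47, 41.67 and 44.60 TPM and at 76.89, 45.88 and 43.71 TPM (0.27, SE 0.21), so that only shST3GAL3 1 stood out. Median-ratio scaling (6.82% of all genes) and quantile normalization (6.19%) each lowered the count of 5 to 2. It was also 2 without shControl 1 (5.82%), shControl 3 (4.85%) or shST3GAL3 2 (7.62%), and 1 without shControl 2 (4.47%).

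The sensing genes that lead to interferon production had a median log2 fold change of 0.21 over 19 genes. At an unadjusted p under 0.05, 8 were higher (9.19% of all genes) and 0 lower (3.78%), with 0 past the adjusted test (limma). The 8 genes included Samhd1, which depletes nucleotides (0.35, SE 0.08), Unc93b1, which carries Toll-like receptors to endosomes (0.63, SE 0.18), the RNA sensor gene Ddx58 (0.29, SE 0.09) and the DNA sensor gene Tlr9 (0.76, SE 0.24). The count of 8 was 4 without shControl 1 (5.82% of all genes) or shControl 3 (4.85%). It was 5 without shST3GAL3 1 (8.43%) or shST3GAL3 2 (7.62%) and under median-ratio (6.82%) or quantile scaling (6.19%). Of 8 negative regulators, 2 were higher at an unadjusted p under 0.05 (9.19% of all genes), Socs1 (0.77, SE 0.12) and Irf2 (0.27, SE 0.08). Of the 8, 0 passed the adjusted test (limma). Without shControl 1 the count of 2 was 1 (5.82% of all genes). The library shControl 2 was the lowest control for 7 of 10 receptors and kinases, 7 of 19 sensing genes and 2 of 8 negative regulators (34.7% of all genes). The sensing genes were thus near the share of all genes, and the negative regulators below it. The medians of shControl 2 against the shControl mean were 0.04 for sensing genes, 0.03 for negative regulators and -0.06 for receptors and kinases.

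Further interferon-stimulated genes showed the control order again. In 61 such genes the order shControl 2, 1, 3 was found for 39 (18.3% of all genes), and shControl 2 was lowest for 46 (34.7%). Their median log2 fold change was 0.31. At an unadjusted p under 0.05, 18 were higher (9.19% of all genes) and 0 lower (3.78%), with 0 past the adjusted test (limma). The groups did not overlap for 20, all higher (15.7% of all genes). Without shControl 3 the count was 37, where the share of all genes also rose, to 20.3%. Parp12 (0.50, SE 0.09), the peptide transporter gene Tap1 (0.53, SE 0.11), Uba7, which activates ISG15 (0.53, SE 0.12), and Shisa5 (0.50, SE 0.12) had the smallest p. In 22 targets typical of interferon gamma shControl 2 was likewise lowest for 16 (34.7% of all genes). The full order 2, 1, 3 was found for 6 (18.3%), and the groups did not overlap for 19, all higher (15.7%). The median log2 fold change of these targets was 0.50, with 0 past the adjusted test (limma). At an unadjusted p under 0.05, 18 were higher (9.19% of all genes) and 0 lower (3.78%). The count of 18 was 11 without shST3GAL3 2 (7.62%). Irgm2, a GTPase gene, stood at 59.53, 46.26 and 56.03 TPM in the controls and at 78.16, 96.87 and 84.27 TPM in the shST3GAL3 tumours. Irf1, a transcription factor gene, stood at 211.06, 173.28 and 171.40 TPM and at 265.61, 315.79 and 246.48 TPM. For both, the library with the highest value was shST3GAL3 2, whereas shST3GAL3 1 was the highest shST3GAL3 library for 23 of the 37 antiviral genes (34.3% of all genes).

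By library, the median of the 37 genes against the shControl mean was 0.04, -0.30 and 0.26 in shControl 1, 2 and 3 and 0.40, 0.36 and 0.25 in shST3GAL3 1, 2 and 3. The library shControl 3 was therefore level with shST3GAL3 3. Lists of cell type markers also differed between these libraries. The tumour epithelium medians, over 5 genes tested, were -0.0036, 0.08 and -0.07 in the controls and -0.75, -0.25 and -0.06 in the shST3GAL3 tumours. Of the 5 genes only Krt19 had groups without overlap, at 384.42 to 826.78 TPM in the shST3GAL3 tumours against 884.94 to 1070.25 TPM. Krt18 (log2 fold change -0.43, SE 0.20) and Krt8 (-0.33, SE 0.18) were lower with overlap. Wt1 (0.34, SE 0.38) and Msln (0.01, SE 0.14) had positive log2 fold changes. The B and plasma cell medians were -0.01, 0.75 and -0.61, and 5.13, 1.77 and 0.34. The fibroblast medians were -0.02, -0.29 and 0.37 in the controls and 2.92, 1.18 and 0.60 in the shST3GAL3 tumours, with summed levels of 625.9 to 1017 TPM and 1176 to 6237 TPM. The endothelial medians were 0.02, -0.17 and 0.19, and 1.80, 0.79 and 0.56. The neutrophil medians were 0.27, -0.69 and 0.15, and 1.497, -0.46 and 0.13. The NK cell medians were -0.03, -0.06 and 0.11 in the controls and 1.04, 0.63 and 0.08 in the shST3GAL3 tumours. The order shControl 2, 1, 3 (18.3% of all genes) was found for 6 of 8 fibroblast, 4 of 6 endothelial and 2 of 6 NK cell genes. It was found for 1 of 10 macrophage, 1 of 10 T cell and 1 of 5 neutrophil genes tested. Among 5 tumour epithelium and 4 B and plasma cell genes tested it was found for 0. In the controls the macrophage medians were 0.10, 0.01 and -0.12 and the T cell medians 0.21, -0.21 and -0.11, in other orders. In the shST3GAL3 tumours they were 1.00, 0.54 and 0.17, and 1.02, 0.98 and 0.16. The part of these cells in the values of the 37 genes was not tested. Plasmacytoid dendritic cells are known for strong interferon secretion, and the 9 genes of their list were unequal in level. Siglech lay between 0.59 and 0.67 TPM in the controls and between 0.88 and 2.32 TPM in the shST3GAL3 tumours. Ccr9 was at or below 0.63 TPM throughout, and Klk1, Cox6a2, Ly6d and Pacsin1 at or below 4.74 TPM. Irf8 (35.45 to 54.97 TPM), Tcf4 (16.88 to 37.02 TPM) and Runx2 (11.93 to 16.67 TPM) were higher. Over the 5 genes tested, the medians were 0.02, -0.08 and -0.045 in the controls and 0.47, 0.44 and 0.08 in the shST3GAL3 tumours. The handling stress list was level in the controls (-0.01, -0.05 and 0.04) and stood at 0.89, 0.21 and 0.21 in the shST3GAL3 tumours, and its part was not tested either.

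**Figure D5:**
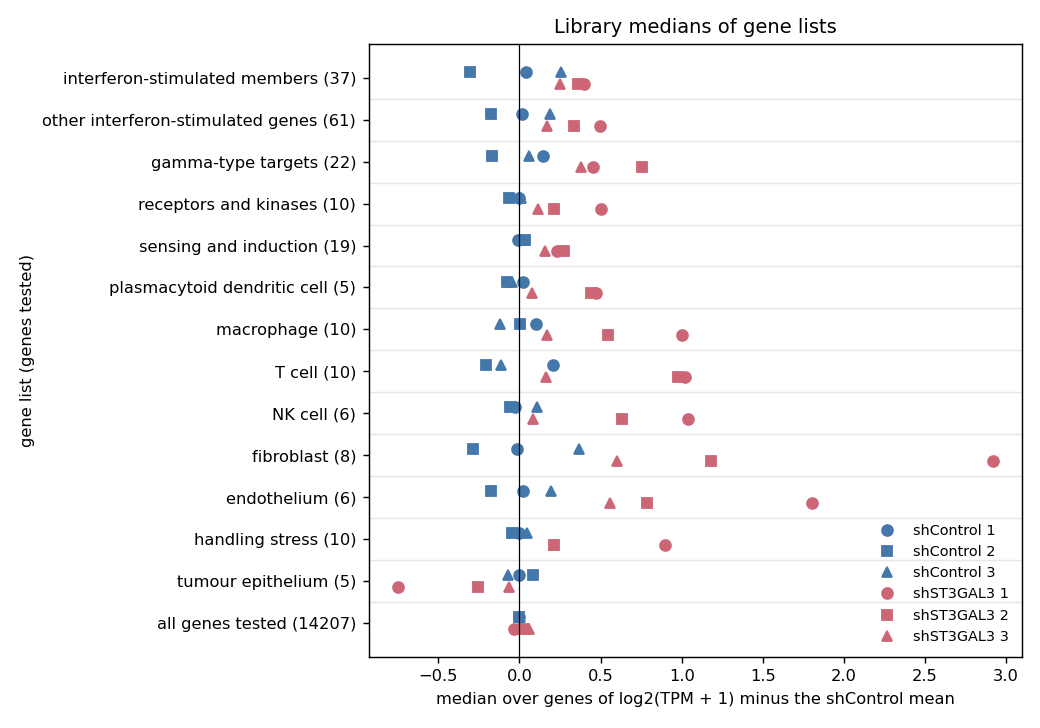
Median over the genes of each list (rows, with the number tested) of log2(TPM + 1) minus the shControl mean (horizontal axis), for shControl (blue) and shST3GAL3 (red) libraries 1 (circle), 2 (square) and 3 (triangle). For the 37 interferon-stimulated genes shControl 2 lies at -0.30 and shControl 3 at 0.26, level with shST3GAL3 3, and for interferon gamma targets all controls lie at or below 0.15 and all shST3GAL3 libraries at or above 0.38.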

How the data were processed

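RNA sequencing of 6 tumours was deposited as TPM, 1 value per gene and library with 2 decimals. Per the submitters' processing notes, fastp, HISAT, RSEM and the build GRCm39 were used; no source used here gives versions, annotation release or strand setting. Read numbers are not kept in TPM, so no counting interval was given. Groups were taken from the sample titles. The 14207 genes that reached 1 TPM in at least 3 libraries were fitted with limma 3.58.1 in R 4.3.3 on log2(TPM + 1), with a mean-variance trend and the group alone, with Benjamini-Hochberg adjustment over all of them. Fold changes on that scale understate low genes. Errors are SEs of that fit or SDs over 3 libraries. The 37 genes and the other lists were chosen with earlier results of these data known, and no list was tested as a set. All 37 genes were named, with St3gal3, the detected interferon ligands, both IFNAR genes and up to 4 genes of smallest p per pathway list; further genes were chosen after their values were seen. A gene that this rule also names is not reported here. On simulated data, genes were drawn independently and 200 of 14207 were changed. Of log2 changes of 1, 62.2% were recovered, and of 2, 87.4%, while 5.24% of the calls were false. Smaller changes were not simulated, so recovery at the sizes of the 37 genes, at most 0.63, is not known. Shared windows, exon overlap and chromosomes came from GENCODE M21 (GRCm38), another build than that of the files, and promoters from RefSeq. Alternatives were other pseudocounts, filters and scalings, library weights, a replicate block and leaving out each library.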

Additional observations from a re-analysis of the deposited data

How the results depend on the processing

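Over 14 alternative settings, 30 of the 37 genes kept the sign of their log2 fold change in every fit in which they were tested, 7 did not, and none passed the adjusted threshold. Without shControl 2 the log2 fold changes were -0.18 for Mx2, -0.0587 for Eif2ak2, -0.0062 for Irf7, -0.0089 for Ifi44, -0.13 for Usp18 and -0.0694 for Ifit1. Without shST3GAL3 2 they were -0.05 for Eif2ak2 and -0.0335 for Isg20, and without shST3GAL3 3 -0.07 for Mx2 and -0.0001 for Isg20. Quantile normalization gave -0.0231 for Eif2ak2 and -0.0232 for Isg20, and library weights gave -0.18 for Mx2. The cause was not tested. The highest values on leaving out a library were 0.52 for Mx2 (without shST3GAL3 2), 0.11 for Isg20 (without shST3GAL3 1) and, without shControl 3, 0.10 for Eif2ak2, 0.62 for Ifi44, 0.28 for Usp18 and 0.79 for Ifit1. Leaving out each library gave 5 to 25 genes higher at an unadjusted p under 0.05 (4.47% to 12.6% of all genes). It gave 12 to 28 higher without overlap (20.3% to 22.9% of all genes) and a median log2 fold change of 0.17 to 0.53. Samd9l was lower without overlap when shST3GAL3 2 was left out, and the share of all genes lower in that fit was not taken. The median control SD was then 0.17 to 0.38, and the library medians of the controls lay 0.24 to 0.56 apart. Without overlap there were 9 genes with median-ratio scaling (12.4% of all genes) and 10 with quantile normalization (10.5%). With the replicate number as a block 13 genes were higher at an unadjusted p under 0.05 (9.73% of all genes). The count was the same without the block (9.19%), and the median stayed 0.37. Deviations of same-numbered samples from their group means had r of 0.01, -0.08 and 0.04, and those of differently numbered samples r from -0.12 to 0.13. Such values cannot decide whether the samples were paired, and the labels do not say. A longer element with a following C was present in 9 promoters. Unknown depth limits statements on the ligands and other genes near 0.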
